A study of Mus musculus with 8 samples.

Results

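Carboxylesterases are serine hydrolases that cut ester and amide bonds, and 10 of their mouse genes are described here in sorted Paneth cells: Ces1d, Ces1e, Ces1f, Ces1g, Ces2a, Ces2b, Ces2c, Ces2e, Ces2g and Ces3a. They are 10 of the 55414 gene IDs in the count table, and the table held 20 carboxylesterase symbols in all. The genes were found by matching their IDs to symbols, and the list was drawn up with the zinc and water values of this table already known. The differences of these 10 genes between zinc and water are therefore a description and carry no test. The cells came from the small intestine of C57BL/6J mice, with no transgene or deletion named for either group. The 4 water mice drank Milli-Q (ultrapure) water and the 4 zinc mice drank the same water with 25 mM ZnSO4, both for 7 days. Paneth cells were collected by fluorescence-activated sorting, and each of the 8 libraries came from 1 mouse. The labels give neither the sex nor the age of the mice.

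Most carboxylesterases are soluble enzymes inside the endoplasmic reticulum, where a short signal at the end of the protein brings escaped molecules back from the Golgi. Liver and gut epithelium are rich in them, and they are best known for splitting ester drugs and for hydrolysing acylglycerols, cholesteryl esters and retinyl esters. Mice carry many tandem copies, grouped by sequence into the Ces1, Ces2 and Ces3 branches, and the copies differ in tissue and in substrate. Paneth cells sit at the base of the crypt and fill their granules with antimicrobial proteins, which pass through the same endoplasmic reticulum.

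Library totals lay between 20760764 and 24117111 counts, and 7 Paneth cell markers (Lyz1, Defa24, Defa30, Mmp7, Ang4, Itln1 and Mptx2), read as a check of the cell label, together held 41.8% to 54.5% of each library. Levels are CPM values, in which library totals were adjusted by TMM factors to offset the weight of a few very abundant genes. A count of 0 was taken as up to 3 counts, which allowed 0.115 to 0.188 CPM depending on the library and covers counting error only. With edgeR's quasi-likelihood test, 10 of 11988 genes passed an adjusted p of 0.05. Of these, 3 were the zinc-induced genes Mt1 (log2 fold change 3.65, SE 0.38, adjusted p = 0.0259), Mt2 (6.15, SE 0.51, adjusted p = 0.0198) and Slc30a1 (2.01, SE 0.29, adjusted p = 0.0198). Of these 3 calls, 0 were left without water replicate 2 and 1 was left without water replicate 1 or without water replicate 4, against 2 or 3 without any 1 other library.

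All 20 genes lay on chromosome 8 (GRCm39). The 8 Ces1 genes ran in tandem on the minus strand (chr8:93746842-94106353), and 11 genes of the Ces2, Ces3 and Ces4 branches ran on the plus strand (chr8:105460630-105876741). Every member carried, once, the codons of the active-site consensus GXSXGG around the catalytic serine, as did 17 of the 19 coding carboxylesterases and 2.79% of 21515 coding genes. The stretches below are read 5′ to 3′ along the coding strand, with those 6 codons in capitals, and are shown for the 2 members whose groups did not overlap (Ces1d and Ces1g), the most abundant member (Ces2e) and the member of the Ces3 branch (Ces3a):
Ces1d, chr8:93914383-93914412, minus strand: atctttGGAGAGTCAGCAGGAGGTttcagt
Ces1g, chr8:94055018-94055047, minus strand: atcttcGGCGAGTCAGCAGGAGGTgaaagt
Ces2e, chr8:105656441-105656470, plus strand: atttttGGAGAGTCAGCAGGTGGCacaagt
Ces3a, chr8:105778212-105778241, plus strand: atcttcGGTAACTCTGCTGGAGGCattatt

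The last 4 codons before the stop matched HXEL, the retrieval signal of the endoplasmic reticulum, in 9 of the 10 members, in 11 of the 19 coding carboxylesterases and in 33 of 21515 coding genes (0.153%). Ces3a was the member without it. Ces1c, which encodes an esterase secreted into plasma and is not a member, also lacked it. The final 30 coding bases are given with these 4 codons in capitals:
Ces1d, chr8:93892883-93892912, minus strand: ccatcccacagggaaCATGTTGAGCTCtga
Ces1g, chr8:94029533-94029562, minus strand: tcatcccatagggaaCATGTTGAACTGtga
Ces1e, chr8:93928032-93928061, minus strand: caactgccgacagaaCACACTGAGCTGtga
Ces1f, chr8:93983057-93983086, minus strand: caaccccagccatacCACAATGAGCTGtga
Ces2c, chr8:105580867-105580896, plus strand: gcttctcaggacaagCACAGGGAGCTTtag
Ces2e, chr8:105660317-105660346, plus strand: gggtctcaggagaggCACAAAGAGTTGtag
Ces3a, chr8:105784706-105784735, plus strand: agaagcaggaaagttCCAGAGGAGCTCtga
Ces1c, chr8:93825793-93825822, minus strand: gaccctactgaacacACAGAACACAAAtga

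The members' proteins were close in length, with 556 to 571 codons. Coding sequences were 74.6% to 81.6% identical among the 4 Ces1 members and 81.6% to 92.1% among the 5 Ces2 members. Between Ces1 and Ces2 members they were 62.3% to 65.4% identical. Ces3a was 62.9% (Ces1e) to 65.9% (Ces2c) identical to the other members. Ces1g was the member closest to Ces1d (81.6%), and Ces2b and Ces2c were the closest pair (92.1%). Such likeness can divide reads between copies, so each transcript was searched in windows of 75 bases, about the length of a read. In Ces1d, Ces1f and Ces1g, 100% of windows occurred in no other gene of the table. In Ces2c only 74.5% did, the rest being shared mainly with the pseudogene Ces2d-ps, and the share was 92.0% in Ces2a and 81.8% in Ces3a. The counts of Ces2c and Ces3a are the least certain for this reason, and their exons also overlapped a gene on the other strand.

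The order of the members by level was read per kilobase of merged exon, since only per-length levels can be compared between genes. Ces2e, an acylglycerol hydrolase of intestine and liver, stood first with a mean of 4.33 CPM per kb over the 8 libraries, above 72.1% of tested genes. Ces1d, the triacylglycerol hydrolase of liver and adipose tissue, followed with 3.98, then Ces1e with 3.36, Ces2g with 2.63 and Ces2a with 2.23. Ces2c (0.905), Ces1g (0.740) and Ces1f (0.520) formed a lower tier, and Ces2b (0.0375) and Ces3a (0.0019) were close to absent. Neighbours in this order were not always apart: Ces2e was above Ces1d in 5 of 8 libraries, Ces2c above Ces1g in 6 and Ces1g above Ces1f in 5. Ces2a was above Ces2c in all 8 libraries, and Ces1f was above Ces2b in all 8. The first places depended on the group, since Ces2e exceeded Ces1d in 1 of 4 water libraries and in 4 of 4 zinc libraries. They also depended on the length, since with the longest coding transcript in place of merged exons Ces1d (5.04) stood above Ces2e (4.33) and Ces1f (0.794) above Ces1g (0.756).

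**Figure D1:**
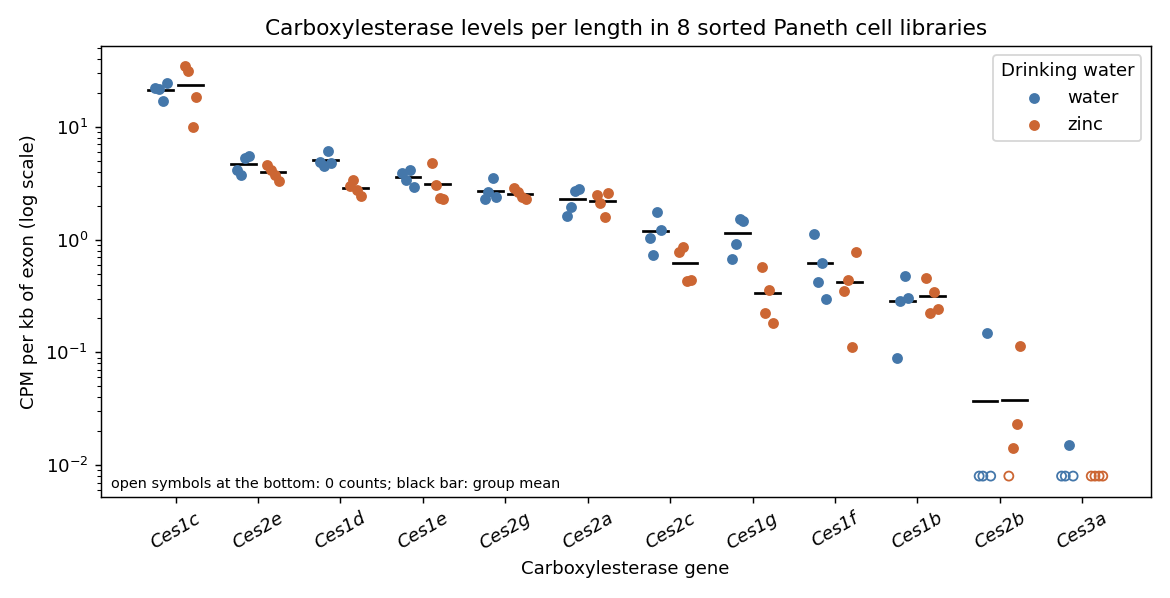
Level of each detected carboxylesterase gene in CPM per kb of merged exon (log axis), 1 point per library, with water in blue, zinc in orange and group means as black bars; genes at 0 counts are open symbols at the bottom. Ces1c lies above the members at a mean of 22.4, 6 members lie near or above 1, and Ces2b and Ces3a lie at the floor.

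Of the 10 members, 8 passed the low-count filter and Ces2b and Ces3a did not. All 8 had a log2 fold change below 0 in zinc, with a median of -0.39 and a range from -1.80 to -0.06. Over all 11988 tested genes the median was 0.01 and 48.1% were below 0. Ces1d was the 1 member past the threshold and none passed upward, where the background was 0.0584% of tested genes called lower, 0.025% called higher and 0.0834% in either direction. In 2 members, Ces1d and Ces1g, all 4 zinc libraries lay under all 4 water libraries, as they did in 1.59% of tested genes. No member had all zinc libraries above all water libraries, which held for 1.24% of tested genes. Because the members were listed with this contrast in view, nothing is read from these counts. A lower level in a bulk library cannot be told apart from fewer cells that carry the transcript.

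Ces1d (ENSMUSG00000056973, chr8:93892693-93924466, minus strand, 15 merged exons) measured 25.1, 23.2, 31.3 and 24.5 CPM in the water libraries and 15.4, 17.3, 14.0 and 12.6 CPM in the zinc libraries. The groups did not overlap, and the gap between the lowest water and the highest zinc library was wider than the spread among the zinc libraries. The means were 26.0 ± 3.62 and 14.8 ± 1.99 CPM (SD, n = 4 each), and the log2 fold change was -0.81 (SE 0.14), a level 43.1% lower in zinc. The raw counts, from 401 to 741 in water and from 259 to 358 in zinc, did not overlap either. Leaving out any 1 library moved the log2 fold change between -0.90 and -0.72, but Ces1d was past the threshold only without water replicate 1 or without water replicate 4, and not in the other 6 of these fits. It was also short of the threshold with library totals as the only scaling.

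Ces1g (ENSMUSG00000057074, chr8:94028683-94063953, minus strand), a hepatic esterase known from studies of lipid secretion, had the largest difference of the 8. It measured 1.88, 2.54, 4.23 and 4.09 CPM in water and 1.60, 0.628, 0.988 and 0.504 CPM in zinc. The highest zinc library and the lowest water library were close, at 27 and 30 counts, while the remaining zinc libraries held 13 to 25 counts. The log2 fold change was -1.80 (SE 0.40) and ran from -2.17 to -1.60 when 1 library was left out. Ces1g was past the threshold with DESeq2 and without the low-count filter, and in no other setting.

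Ces1e (ENSMUSG00000061959, chr8:93927846-93956247, minus strand), the egasyn that holds β-glucuronidase in the endoplasmic reticulum of the liver, measured 12.2, 10.7, 13.1 and 9.13 CPM in water and 15.1, 9.66, 7.35 and 7.25 CPM in zinc. The highest of the 8 values was thus a zinc library, replicate 1, and the groups overlapped. The log2 fold change of -0.20 (SE 0.22) was within its error and became -0.48 without zinc replicate 1. Without zinc replicate 4 it was -0.09, and without zinc replicate 3 it was also -0.09. Ces1f (ENSMUSG00000031725, chr8:93981999-94006375, minus strand), a relative of Ces1d in the liver, was the most scattered, with 4.82, 1.80, 2.67 and 1.26 CPM in water against 1.49, 1.88, 0.474 and 3.34 CPM in zinc. No order of the groups was visible, and the log2 fold change of -0.53 (SE 0.52) was -0.08 without water replicate 1 and -1.04 without zinc replicate 4. It was -0.21 without zinc replicate 3.

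**Figure D2:**
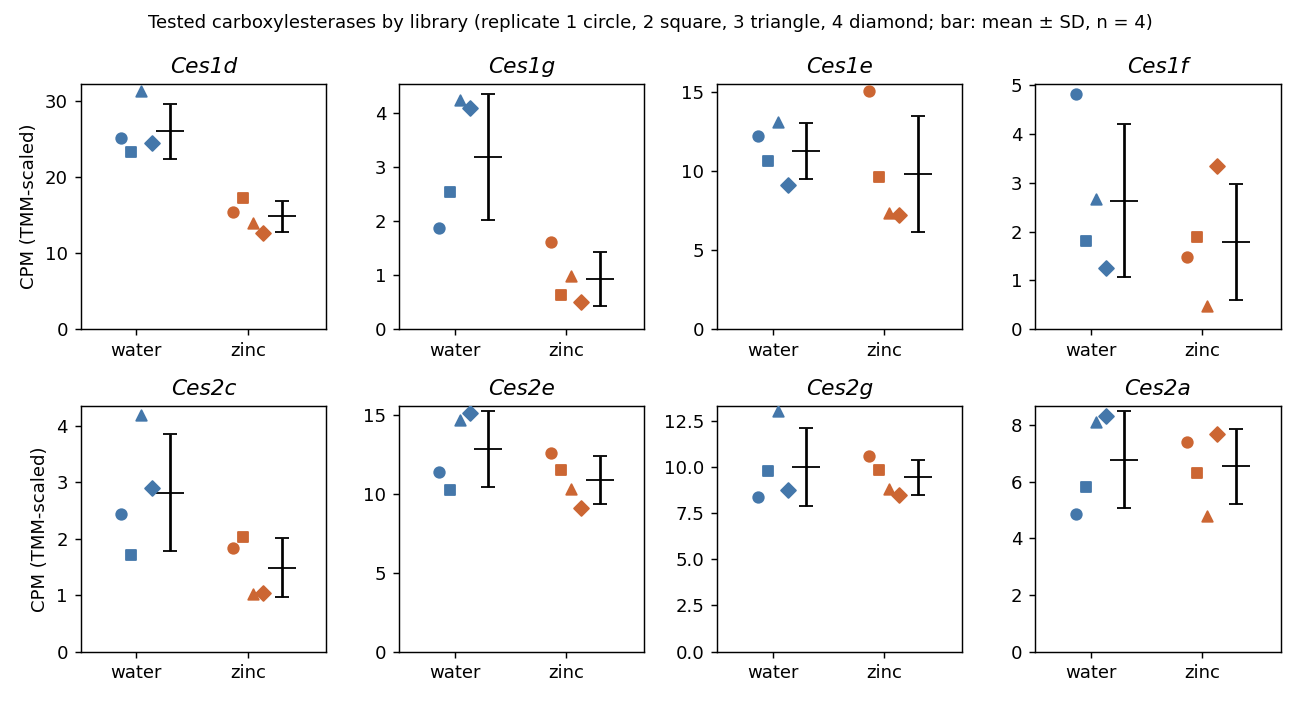
CPM of the 8 tested members by library, water in blue and zinc in orange, with replicate numbers as symbols and the mean ± SD (n = 4) as black bars; every axis starts at 0. The water and zinc points are apart in Ces1d and Ces1g and overlap in the other 6 members.

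Of the Ces2 members, Ces2c had the largest difference between the groups. Ces2c (ENSMUSG00000061825, chr8:105573700-105581115, plus strand), an acylglycerol and acylcarnitine hydrolase, measured 2.44, 1.72, 4.19 and 2.90 CPM in water and 1.84, 2.03, 1.03 and 1.05 CPM in zinc. Water replicate 2 lay below 2 of the zinc libraries, so the groups overlapped. The log2 fold change was -0.94 (SE 0.36) and -0.68 without water replicate 3, the highest library.

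Ces2e (ENSMUSG00000031886, chr8:105652848-105661304, plus strand) measured 11.4, 10.3, 14.7 and 15.1 CPM in water and 12.6, 11.5, 10.3 and 9.11 CPM in zinc. Ces2g (ENSMUSG00000031877, chr8:105688346-105696169, plus strand) measured 8.38, 9.75, 13.0 and 8.74 CPM in water and 10.6, 9.85, 8.81 and 8.49 CPM in zinc. Ces2a (ENSMUSG00000055730, chr8:105460630-105468266, plus strand), a hydrolase of diacylglycerols, measured 4.88, 5.80, 8.12 and 8.32 CPM in water and 7.42, 6.32, 4.78 and 7.68 CPM in zinc. The groups overlapped in all 3 genes. The log2 fold changes were -0.25 (SE 0.17) for Ces2e, -0.09 (SE 0.17) for Ces2g and -0.06 (SE 0.22) for Ces2a. The sign was not fixed in Ces2g and Ces2a: without water replicate 3 they came to 0.06 and 0.03, and Ces2a was also above 0 without water replicate 4 (0.05) or zinc replicate 3 (0.06).

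**Figure D3:**
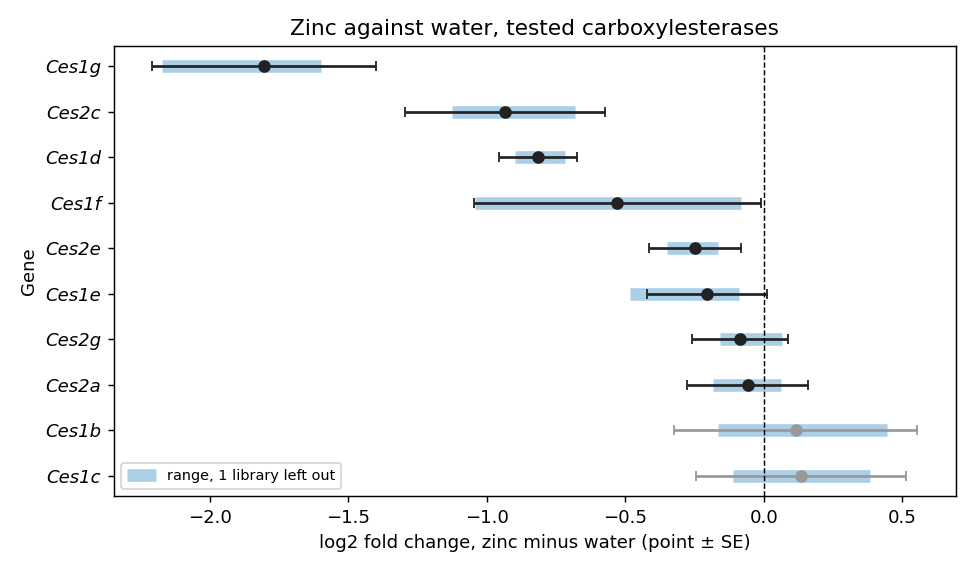
Log2 fold change of zinc minus water (point) with its SE (whiskers) for the 8 tested members in black and for Ces1b and Ces1c in grey; the blue bar is the range when 1 library is left out. Ces1g lies farthest from 0 at -1.80, Ces1d has the narrowest error of the 3 largest differences, and the bars of Ces2a, Ces2g, Ces1b and Ces1c cross 0.

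The remaining members were at the limit of detection. Ces2b (ENSMUSG00000050097, chr8:105558204-105566725, plus strand) had 0, 0, 12 and 0 counts in water and 0, 1, 2 and 10 counts in zinc. Its counts came mainly from 1 mouse of each group, and the exact Poisson interval of the 12 counts was 6.20 to 21.0. Ces3a (ENSMUSG00000069922, chr8:105775223-105789243, plus strand), best known from the liver, had 2 counts in water replicate 3 and 0 counts in the other libraries. Of the 10 further carboxylesterase symbols, 8 had 0 counts in every library, among them Ces1a, Ces2f, Ces3b and Ces4a. At this depth a gene with 0 counts may still be present below 0.115 to 0.188 CPM.

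The other 2 were Ces1c and Ces1b. Ces1c (ENSMUSG00000057400, chr8:93825643-93857942, minus strand) had a level of 22.4 CPM per kb, above 95.2% of tested genes and above every member in all 8 libraries. It made up 49.8% ± 6.99 of the summed per-length level of the family in water and 56.2% ± 10.6 in zinc (SD, n = 4 each), where Ces1d made up 11.8% ± 1.57 and 7.81% ± 2.51. Ces1c itself spread from 45.0 to 64.4 CPM in water and from 26.1 to 90.4 CPM in zinc, and its log2 fold change was 0.13 (SE 0.38). Ces1b, whose coding sequence is 91.2% identical to that of Ces1c, lay between 0.438 and 2.33 CPM with a log2 fold change of 0.11 (SE 0.44). Neither passed the threshold, and the sign of both depended on which library was omitted.

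A ratio of counts within a library needs no scaling between libraries. The log2 ratio of Ces1d to Ces2g was 1.58, 1.25, 1.27 and 1.48 in water and 0.54, 0.81, 0.67 and 0.57 in zinc. The groups did not overlap. Ces1d was set against the 9 other tested carboxylesterases in this way, and the ratio was lower in zinc without overlap for 4 of them (Ces1e, Ces2a, Ces2e and Ces2g). It overlapped for Ces1f, Ces1g, Ces2c, Ces1b and Ces1c. The 4 genes without overlap had log2 fold changes between -0.25 and -0.06. Their ratios therefore largely restate the difference of Ces1d and are no separate support. The share of all tested genes whose ratio to Ces1d separates the groups was not computed. The mean log2 ratio to Ces2c was 3.26 ± 0.37 in water and 3.36 ± 0.35 in zinc. The mean log2 ratio to Ces1g was 3.09 ± 0.49 in water and 4.09 ± 0.70 in zinc (SD, n = 4 each).

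**Figure D4:**
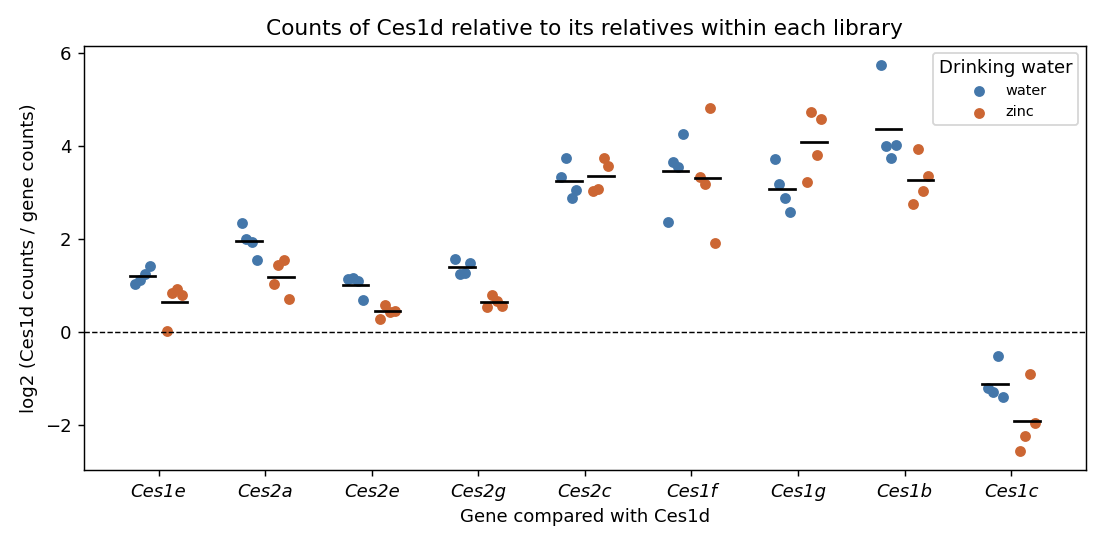
Log2 ratio of Ces1d counts to the counts of each other tested carboxylesterase within each library, water in blue and zinc in orange, with group means as black bars; the dashed line marks equal counts. Zinc lies under water without overlap for Ces1e, Ces2a, Ces2e and Ces2g, the ratios to Ces2c lie at one height, and Ces1c exceeds Ces1d in every library.

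The 4 Ces1 members together reached 44.0, 38.2, 51.4 and 39.0 CPM in water and 33.6, 29.5, 22.8 and 23.7 CPM in zinc. The groups did not overlap, and in each library Ces1d gave more of the sum than any other Ces1 member. This sum leaves out Ces1b and Ces1c of the same branch. Ces1c alone lay between 45.0 and 64.4 CPM in water and between 26.1 and 90.4 CPM in zinc, with overlap. The 5 Ces2 members summed to 32.6 ± 6.46 CPM in water and 28.5 ± 3.28 CPM in zinc (SD, n = 4 each), with overlap. All 10 members together reached 75.7 ± 11.4 and 55.9 ± 8.31 CPM, a difference of -26.2% of the water mean, and the groups barely overlapped (65.8 CPM in the lowest water and 66.0 CPM in the highest zinc library). With Ces1c and the other carboxylesterases added, the sums were 133 ± 7.68 and 119 ± 38.0 CPM, so the difference was smaller than the spread of the zinc libraries.

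Variation between mice of 1 group was examined apart from the contrast, as deviations of log2 CPM from the group means. Ces1d had a within-group SD of 0.19, under the median of 0.25 over all tested genes, and 32.9% of them had a smaller SD. Spread within groups also enters the test that called Ces1d, so this SD is no separate trait. The SDs of Ces2g (0.23) and Ces2e (0.24) were similar, whereas Ces1f (0.95) was more variable than 97.2% of tested genes and Ces1g (0.61) more than 90.2%. Ces1f held only 12 to 86 counts per library and Ces1g 13 to 107. Their SDs include counting error, which is larger at low counts, and the ranking was not adjusted for depth. Deviations of 25 of the 28 pairs of tested members had a positive Pearson correlation over the 8 libraries, with a median of 0.47. The closest pairs were Ces1d with Ces2c (0.90) and Ces2c with Ces2e (0.85), and the most opposed pair was Ces1f with Ces1g (-0.58). These correlations share libraries, depth and scaling and are descriptive. The share of positive pairs over all tested genes was not computed, so 25 of 28 is not read as a family trait. The genes named next were the highest of 11988 tested genes over only 8 libraries, where such high values can arise by chance. The tested genes most like Ces1d in this measure were Plpp7 (0.98), Arap1 (0.97), Ppp1r12a (0.97), Deptor (0.97) and Cobll1 (0.96), and those most like Ces2e were Senp7 (0.97), Krt23 (0.96), Entrep1 (0.96), Herc3 (0.95) and Slc39a5 (0.95).

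Genes that work beside carboxylesterases were read from 7 lists with 88 genes, of which 75 were tested. None passed the threshold in either direction with edgeR. An unadjusted edgeR p under 0.05 was found for 2 of the 75, and for 558 of all 11988 tested genes. The median log2 fold change of the 75 was 0.02. DESeq2 and limma-voom called 0 of them as well. The list of 10 neutral lipid hydrolases had a median of -0.08. It held Aadac, an esterase of the endoplasmic reticulum, with 20.4 ± 2.30 CPM in water and 12.6 ± 3.73 CPM in zinc (SD, n = 4 each) and no overlap of the groups. Its log2 fold change of -0.70 (SE 0.20) had an edgeR adjusted p of 0.545, and Aadac passed when the replicate number was a block or when the low-count filter was dropped. Pnpla2, the adipose triglyceride lipase and the most abundant of this list per length, had a log2 fold change of -0.15 (SE 0.12).

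No enzyme of drug metabolism passed the threshold. Of 23 phase I genes 18 were tested, with a median of 0.04. Their most abundant member Aldh1b1, a mitochondrial aldehyde dehydrogenase, measured 488 ± 34.9 and 465 ± 14.3 CPM (SD, n = 4 each). Adh1, an alcohol and retinol dehydrogenase, measured 97.1 ± 30.6 CPM in water and 41.8 ± 16.0 CPM in zinc, a log2 fold change of -1.21 (SE 0.34) with an edgeR adjusted p of 0.852, and its groups overlapped. The 17 tested genes of phase II and efflux had a median of 0.08, with Ugt2b34, a glucuronosyltransferase, at -0.02 (SE 0.11) and the glutathione transferase Mgst1 at 0.06 (SE 0.14).

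Among the nuclear receptors and transcription factors of this metabolism, 10 of 12 were tested with a median of -0.06. Hnf4a, a regulator of gut and liver genes, stood at 0.08 (SE 0.12) and Cebpa at -0.07 (SE 0.13). Fat absorption and lipoprotein assembly had 11 of 12 genes tested and a median of -0.0009, with the acyl-CoA synthetase Acsl5 at 0.22 (SE 0.11) and the lipid droplet protein Plin3 at 0.03 (SE 0.11). Retinoid handling had 6 of 9 genes tested and a median of -0.12, with the retinal reductase Rdh11 at 0.11 (SE 0.13) and Dhrs3 at -0.07 (SE 0.23). The 3 receptors that return HXEL-type proteins to the endoplasmic reticulum had a median of 0.07, with Kdelr1 at 0.06 (SE 0.13) and Kdelr2 at 0.18 (SE 0.13).

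Carboxylesterases are also enterocyte and liver genes, so the markers of other cells were read beside them. The 20 enterocyte markers summed to 551 to 666 CPM in water and 554 to 668 CPM in zinc, with means of 611 ± 50.1 and 627 ± 52.2 CPM (SD, n = 4 each). The difference of 16.0 CPM was smaller than either SD (exact two-sided permutation p = 0.743). The sum is weighted to abundant markers such as Anpep, so this p does not show that the groups held equal enterocyte RNA. Of the 20 enterocyte markers 14 were tested and 0 passed with edgeR. An unadjusted edgeR p under 0.05 was found for 2 of the 14, and for 558 of all 11988 tested genes. The first of the 2, the sucrase-isomaltase gene Sis, passed with DESeq2 or without zinc replicate 1. Sis was at 1.63 to 2.86 CPM in water and 2.38 to 22.8 CPM in zinc, a log2 fold change of 2.49 (SE 0.65), and the second of the 2 was Enpep at 1.53 (SE 0.64). The log2 fold changes of the 14 had a median of 0.14 and ran from -0.80 to 2.49, with 5 below 0. The part of enterocyte RNA in the carboxylesterase values was not tested. Anpep (289 and 272 CPM) and Slc5a1 (46.7 and 52.9 CPM) were among the most abundant of them, while 8 of the 20 had a mean under 1 CPM, among them Fabp1, Alpi, Lct and Slc15a1. Stem cell markers summed to 4356 to 5728 CPM in water and 3047 to 4455 CPM in zinc, with Olfm4 at -0.48 (SE 0.19, edgeR adjusted p = 0.998). Hepatocyte markers summed to 22.3 to 38.5 CPM in water and 8.73 to 26.8 CPM in zinc, nearly all of it Cyp2e1 and Apoh, while Alb and Fgb had means under 1 CPM. The 2 tested hepatocyte markers went opposite ways, with log2 fold changes of -1.03 and 0.10, and neither passed the threshold. The part of stem cell and hepatocyte markers in the carboxylesterase values was not tested. All 4 adipocyte markers were at 0 in every library, and the stromal and endothelial markers summed to at most 0.625 CPM. Leukocyte markers summed to 13.0 to 35.2 CPM, almost wholly through Lyz2, a close relative of the abundant Lyz1. The goblet cell sums (8646 to 14770 CPM), the tuft cell sums (10.1 to 92.3 CPM) and the enteroendocrine sums (41.2 to 105 CPM) overlapped between the groups.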

How the data were processed

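Total RNA of sorted Paneth cells was made into stranded mRNA libraries, 1 per mouse, and the authors deposited raw read counts per Ensembl gene ID. Their processing notes name STAR 2.7.0a, FastQC 0.12.0, DESeq2 and mm39. The sources used here do not name the counting program, its strand setting, the annotation release or how shared reads were treated. IDs were matched to GENCODE M39 on GRCm39 (54749 of 55414), which also gave exon lengths and coding sequences. Zinc was compared with water in edgeR 4.0.16 (minimum count 10, TMM, quasi-likelihood F test, Benjamini-Hochberg over 11988 genes), with DESeq2 1.42.0 and limma-voom 3.58.1 among the alternatives. The SE of a log2 fold change was its size divided by the root of the F statistic. log2 CPM used a prior count of 2. On simulated counts for zinc against water, 11843 of 11988 genes were tested and 7 of 176 calls were false. There, 75.5% of 2-fold and 96.0% of 4-fold changes were recovered. The simulation had no differences in composition between libraries and far more changed genes than the 10 called in the real data. These rates therefore do not give the power of the real comparison. Members, gene lists and tests were chosen with earlier results of these data known. The text names the members, other tested carboxylesterases, 3 zinc controls, the 2 most abundant genes per length of each related list, 2 of the 3 most abundant enterocyte markers (the other is not reported here) and the 5 genes most like Ces1d and Ces2e. Other marker genes (Olfm4, Sis, Enpep, Lyz2, Cyp2e1, Apoh, the Paneth cell markers and those near 0) are named outside that rule, after their values were seen. Protein sequences and promoters are not analysed here. Exact permutation tests with 4 against 4 libraries cannot go below p = 0.0286.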

Additional observations from a re-analysis of the deposited data

Results flagged for a closer look

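Of 18 groups of 4 libraries examined, the tested members and Ces2b in water and in zinc, 1 held a library far from the others: Ces2b in water replicate 3, at 0.508 CPM while the other 3 water libraries were at 0. Chance gives about 1 in 20 such groups where values are normal, which does not hold for Ces2b. With the other 3 water libraries tied at 0, the flag was fixed once that group was examined. The 12 counts of water replicate 3 compare with 10 counts in zinc replicate 4.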

How the results depend on the processing

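The edgeR test called 3 genes higher and 7 lower with zinc. These counts were 8 and 26 with DESeq2, 11 and 55 without the low-count filter (20836 genes tested), and between 0 and 5 and between 1 and 12 with 1 library left out. Of the carboxylesterase members, 1 was called, against 0 with library totals as the only scaling, 2 with DESeq2 and 2 without the low-count filter, and 0 to 1 with 1 library left out. The call of Ces1d was lost without water replicate 2 or 3 and without any 1 zinc replicate. With the replicate number as a block, 6 genes were called higher and 26 lower, and 1 member. Same-numbered water and zinc libraries correlated in their deviations at 0.233, 5.51e-05, 0.127 and 0.263, and the water libraries of numbers 1, 3 and 4 were most like the zinc library of their own number. The TMM factors also went together by number, at 0.764, 1.02, 1.07 and 1.21 in water and 0.775, 0.998, 1.05 and 1.23 in zinc. The libraries of number 2 did not deviate together, though their TMM factors were close. This is a hint of pairing in the data, but the labels name no shared litter or day. The main fit was therefore unpaired, with the block kept as an alternative. Under it 1 of the 3 zinc controls was called. The related lists went from 0 genes called to 1 (Aadac) under the block and to 1 without the filter. The summed level of the members differed by -26.2% of the water mean, and by -10.6% with all carboxylesterases. The causes were not tested. The median log2 fold change of the tested members stayed between -0.53 and -0.22, and all 8 were below 0 except Ces2a and Ces2g without single libraries, as given above. The enterocyte sum moved between -0.64% and 6.58% of the water mean. By the longest coding transcript, 6 of 10 members held their rank. Of 356 values recomputed, 324 stayed within the spread or within 1.5 times the count, 32 moved and 0 changed the sign of a call. Only the fold change of Ces1d could count as a changed sign of a call. Sign changes of Ces2a, Ces2g, Ces1b and Ces1c counted as unchanged, as did list counts that stayed at 0. Depth limits Ces2b, Ces3a, Ces2c, Ces1g and Ces1f most, with at most 107 counts per library.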
